A study of Mus musculus with 6 samples.

Results

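Heat shock genes were followed in brown fat, the tissue that burns fuel for heat, taken from the interscapular depot of cold-exposed mice. The group comprised 10 genes chosen by name, of 54385 gene rows in the table: the cytosolic chaperones Hspa1a, Hspa1b, Hspa8, Dnajb1, Hsph1, Hsp90aa1 and Hspb1, the mitochondrial chaperonin pair Hspd1 and Hspe1, and the transcription factor Hsf1. All 10 had 1 row each and passed the low-count filter, which left 18114 genes. The study compared 3 libraries from mice with the ADCY3∆AT genotype, a knockout of the form of adenylyl cyclase 3 called AT, with 3 libraries of WT (wt/wt) mice. Adenylyl cyclase 3 makes cyclic AMP, and the AT form is a truncated version that cold induces, per the series title. All mice were C57BL/6N, 20 weeks old, fed chow until 8 weeks and then a high-fat diet for 12 weeks, and all were kept at 4 °C for 24 h before sampling. There was thus no group kept warm or fed chow throughout, and a response to cold cannot be read from these libraries. Which cells the knockout affects and whether each library is a separate animal remain not given in the sources used here. The p-values therefore measure the spread between these libraries, which may be technical. The series text calls the depot inguinal and the sample labels call it interscapular.

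Heat shock proteins are chaperones that bind unfolded protein and help it fold, refold or be degraded. HSP70 proteins hold exposed hydrophobic stretches in a cycle driven by ATP, J-domain proteins (HSP40) deliver clients and start that cycle, HSP110 proteins restart it by exchanging nucleotide, HSP90 proteins finish the folding of kinases and receptors, and small heat shock proteins hold clients without ATP. In mitochondria, the HSP60 and HSP10 chaperonin forms a closed chamber for imported proteins. When unfolded protein accumulates, HSF1 trimerises and binds heat shock elements, which are inverted repeats of GAA and TTC spaced by 2 bases, and transcription of the inducible members starts within minutes.

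The libraries held from 44826777 to 54933588 estimated counts. The targeted gene was examined first. Adcy3 had 348.5, 341.9 and 505.6 CPM (counts scaled to a common library size, with TMM factors) in the ADCY3∆AT libraries, against 676.9, 727.8 and 651.9 CPM in the WT libraries. A row not in the annotation, ENSMUSG66666620654, stood at 0 in each of the 3 ADCY3∆AT libraries and had 628.6, 552.3 and 477.4 CPM in WT. Ucp1, the uncoupling protein that defines brown fat, had 9972 to 10243 CPM in ADCY3∆AT and 10327 to 10647 CPM in WT. Of 6 lists of cell type markers, that of skeletal muscle spanned the widest range. The summed level of 24 such genes was 257, 650 and 953 CPM in ADCY3∆AT replicates 1, 2 and 3, against 2683, 1818 and 4737 CPM in WT. In bulk tissue, fewer cells of a type and less RNA per cell cannot be told apart.

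Across the heat shock genes, no member passed the genotype test. Of the 10 members 0 passed edgeR's quasi-likelihood F test at an adjusted p of 0.05, where the background over all genes was 0.00552%, a single row. That row was ENSMUSG66666620654, the one at 0 in each ADCY3∆AT library (edgeR adjusted p = 7.9e-06). Adcy3 itself did not pass (edgeR adjusted p = 0.158). DESeq2 called 0 of the 8 members to which it gave a p-value, beside 1.17% of the genes it tested. At an unadjusted p under 0.05 there were 2 members, Dnajb1 higher and Hspe1 lower, beside 11% of all genes tested. The groups did not overlap for the same 2 members, beside 16.5% of all genes tested (7.68% higher and 8.83% lower). Of the 10 members 6 had a negative log2 fold change, as did 49.1% of all genes. Their median was -0.10, and the median over all genes tested was 0.00. The widest differences lay between libraries of the same genotype, most of all for the inducible HSP70 pair in ADCY3∆AT replicate 1.

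**Figure D1:**
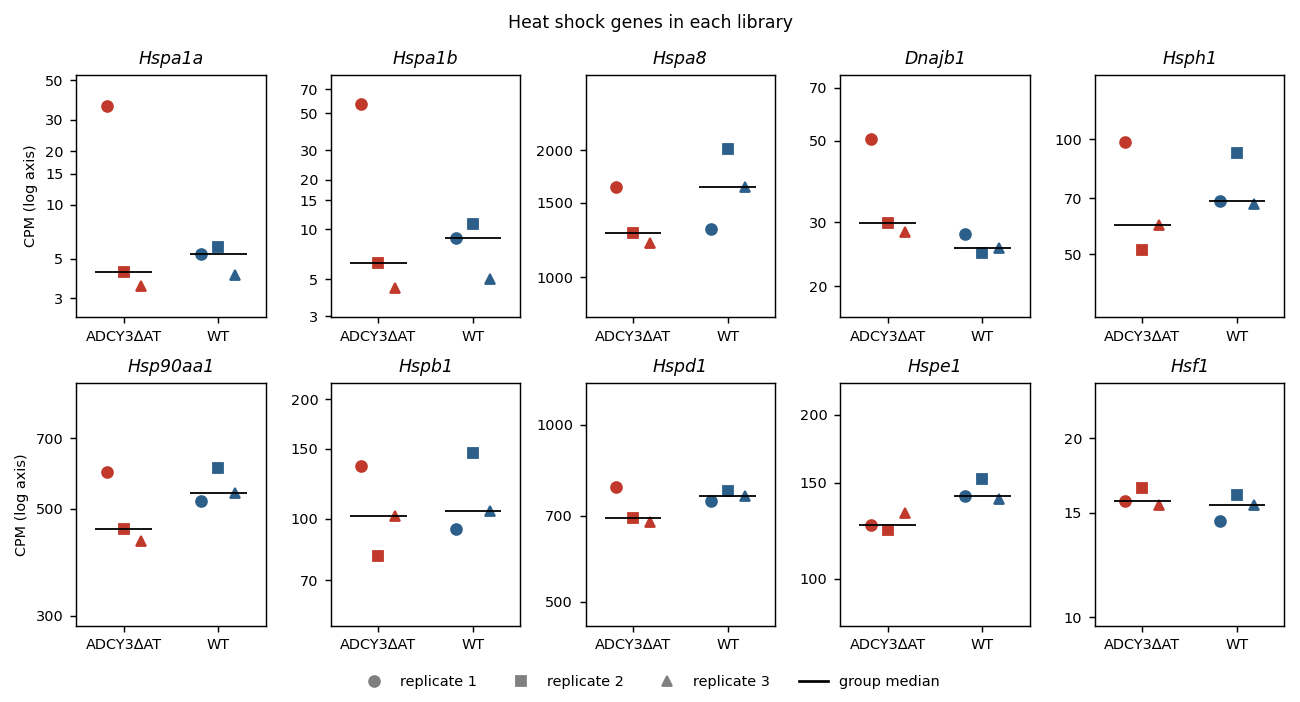
Level of each heat shock gene in every library, in CPM on a log axis, with ADCY3∆AT in red to the left of WT in blue, marker shapes for replicate numbers and a black line at each group's median. Replicate 1 of ADCY3∆AT stands at 36.0 CPM for Hspa1a and 57.3 CPM for Hspa1b, far above the other 5 libraries, while Hspe1 and Hsf1 lie close together in all 6.

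Hspa1a and Hspa1b encode the stress-inducible cytosolic HSP70, which most tissues make at a low level until proteins unfold. Hspa1a (ENSMUSG00000091971, protein-coding, GRCm38 chromosome 17, 34969190 to 34972156, minus strand) had 36.0, 4.19 and 3.53 CPM in ADCY3∆AT replicates 1, 2 and 3, against 5.30, 5.84 and 4.02 CPM in WT. Hspa1b (ENSMUSG00000090877, minus strand of chromosome 17, 34956436 to 34959238) had 57.3, 6.24 and 4.45 CPM in ADCY3∆AT, against 8.87, 10.7 and 5.01 CPM in WT. One ADCY3∆AT library was thus high for both genes, while replicate 2 lay inside the WT range and replicate 3 just below it. Replicate 1 was 9.27-fold (Hspa1a) and 10.8-fold (Hspa1b) above the geometric mean of the other 2 ADCY3∆AT libraries. Among the 12194 genes whose mean log2 CPM was 1 or more, these were the third and the second largest such excess in that library, after Gm13835, a row at 0 in ADCY3∆AT replicate 3.

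The genotype difference of this pair rested on that library. Over WT, ADCY3∆AT had a log2 fold change of 1.52 ± 0.81 for Hspa1a and 1.46 ± 0.87 for Hspa1b (SE, n = 3 each), and neither passed in edgeR (adjusted p = 0.534 and 0.585). The medians of the groups had the opposite order, 4.19 CPM in ADCY3∆AT and 5.30 CPM in WT for Hspa1a, and 6.24 CPM in ADCY3∆AT and 8.87 CPM in WT for Hspa1b. Without ADCY3∆AT replicate 1 the log2 fold changes were -0.39 ± 0.19 and -0.62 ± 0.31 (SE), which did not pass either (edgeR adjusted p = 0.580 and 0.586). With limma voom, which fits log2 CPM with a weight for each value, the log2 fold changes were 0.67 and 0.55. An exact two-sided permutation test over the 20 assignments of 6 libraries gave p = 0.9 for each gene, where the smallest possible p is 0.1. DESeq2 gave no p-value for either gene, since the Cook's distance of ADCY3∆AT replicate 1 (19.5 and 21.4) exceeded its limit of 18.

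The rows of this pair cannot be fully separated. Of the 31-base words of the Hspa1a transcript, 63.8% also occur in the Hspa1b transcript, so a quantifier has to divide many reads between them. Hspa1a took 38.6%, 40.2% and 44.2% of the summed counts of both in ADCY3∆AT and 37.4%, 35.2% and 44.6% in WT, so the division was alike in the high library and in the others. Summed as 1 feature, the pair had 93.2, 10.4 and 7.98 CPM in ADCY3∆AT, against 14.2, 16.6 and 9.03 CPM in WT. The high library rested on 4263 summed counts, and the other 5 on 371 to 778. For the sum the log2 fold change was 1.49 ± 0.84 (SE, edgeR adjusted p = 0.563) with all libraries and -0.53 ± 0.25 (SE, edgeR adjusted p = 0.559) without ADCY3∆AT replicate 1.

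The promoters of this pair are shown because both genes were high in the same library. In the 250 bases before the start site (RefSeq, GRCm38.p6, minus strand, chr17:34972157-34972406 for Hspa1a and chr17:34959239-34959488 for Hspa1b) 247 bases are identical. Capitals mark the motif GAANNTTC, 2 units of a heat shock element, which begins 104 bases before the start of each gene.
Hspa1a: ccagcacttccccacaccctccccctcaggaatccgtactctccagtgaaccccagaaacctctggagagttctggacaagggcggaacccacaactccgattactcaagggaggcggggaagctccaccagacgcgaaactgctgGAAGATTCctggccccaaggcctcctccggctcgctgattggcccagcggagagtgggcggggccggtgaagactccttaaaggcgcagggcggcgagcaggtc
Hspa1b: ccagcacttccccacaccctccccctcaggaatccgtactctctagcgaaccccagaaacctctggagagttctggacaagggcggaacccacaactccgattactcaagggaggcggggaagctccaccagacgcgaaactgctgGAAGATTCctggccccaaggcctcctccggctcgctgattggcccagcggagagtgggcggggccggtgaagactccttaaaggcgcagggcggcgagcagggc
Promoter windows were searched for GAANNTTC and TTCNNGAA, each its own reverse complement, and for the same motifs extended by NN and 1 more unit on the 3′ side (GAA after the first, TTC after the second). These 13-base motifs are each other's reverse complement and contain the 8-base ones. Of 32851 windows of that length in the table, 6.69% hold GAANNTTC, 7.17% hold TTCNNGAA and 0.466% hold either 13-base motif. Windows were listed for 7 members, all but Hspa8, Hsp90aa1 and Hsf1. Of the 10 windows of these 7 members, 7 hold an 8-base motif, beside 12.8% of all windows, and 2 hold a 13-base motif. By gene, 6 of the 7 hold an 8-base motif in at least 1 window, beside 14.5% of 27025 genes. These are not separate cases, since the Hspa1a and Hspa1b windows are nearly identical, both Hsph1 windows hold the same match, and the 13-base matches of Hspd1 and Hspe1 are the same stretch on opposite strands. A match describes letters and not a bound site.

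**Figure D2:**
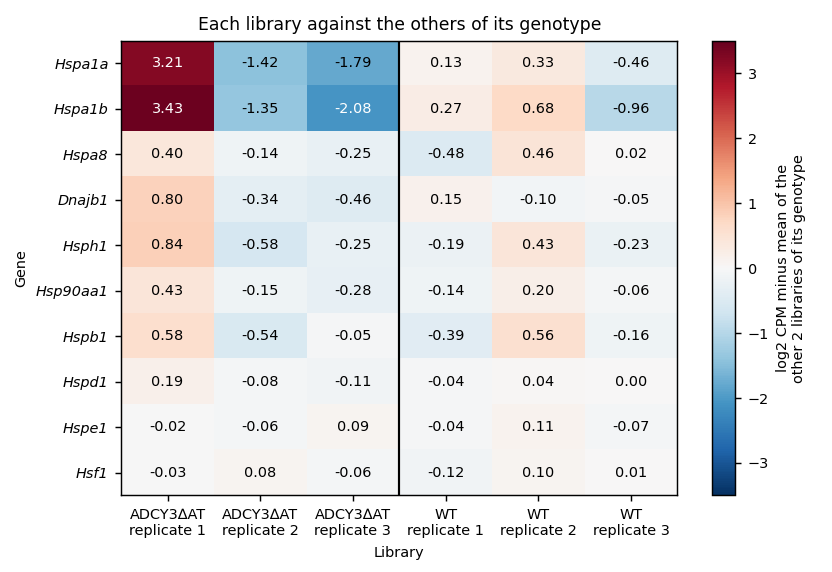
Difference of each library (columns, ADCY3∆AT left of WT) from the mean of the other 2 libraries of its genotype, on the log2 CPM scale, for the 10 heat shock genes (rows), with red above and blue below. ADCY3∆AT replicate 1 is at 3.21 and 3.43 for Hspa1a and Hspa1b and from 0.19 to 0.84 for Hspa8, Dnajb1, Hsph1, Hsp90aa1, Hspb1 and Hspd1, and WT replicate 2 is the highest WT library for every gene but Dnajb1.

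Dnajb1 encodes an HSP40 that delivers clients to HSP70 and is itself induced by heat. It (ENSMUSG00000005483, plus strand of chromosome 8, 83608193 to 83612653) had 50.7, 29.8 and 28.2 CPM in ADCY3∆AT, against 27.9, 24.8 and 25.4 CPM in WT. Every ADCY3∆AT library lay above every WT library, replicate 1 by far and the other 2 by a small margin. With a log2 fold change of 0.48 ± 0.20 (SE, n = 3 each), Dnajb1 passed neither in edgeR (adjusted p = 0.440) nor in DESeq2 (adjusted p = 0.770). The exact permutation test gave p = 0.1, the smallest it allows. Without ADCY3∆AT replicate 1 the log2 fold change was 0.16 ± 0.07 (SE, edgeR adjusted p = 0.568), so its direction held and its size was smaller.

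Hsph1 encodes HSP110, the nucleotide exchange factor that restarts the HSP70 cycle. It (ENSMUSG00000029657, minus strand of chromosome 5, 149614287 to 149636376) had 98.7, 51.3 and 59.7 CPM in ADCY3∆AT, against 69.0, 92.0 and 67.8 CPM in WT. The groups overlapped because ADCY3∆AT replicate 1 was the highest of all libraries, while the other 2 ADCY3∆AT libraries were the lowest. Its log2 fold change was -0.13 ± 0.23 with all libraries (SE, edgeR adjusted p = 0.880) and -0.46 ± 0.14 without ADCY3∆AT replicate 1 (SE, edgeR adjusted p = 0.410). Its sign turned without ADCY3∆AT replicate 2 (0.055) or WT replicate 2 (0.031), so no direction is given for it.

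Hspb1, which encodes the small heat shock protein HSP25, followed the pattern of Hsph1. It (ENSMUSG00000004951, plus strand of chromosome 5, 135887919 to 135889563) had 135.5, 80.7 and 101.4 CPM in ADCY3∆AT, against 94.3, 146.2 and 104.8 CPM in WT. Replicate 1 of ADCY3∆AT and replicate 2 of WT were both high, at like levels. Its log2 fold change was -0.12 ± 0.21 (SE, edgeR adjusted p = 0.871), with a sign that turned without ADCY3∆AT replicate 2 (0.042) or WT replicate 2 (0.089), so none is given here either. Skeletal muscle also makes Hspb1, and the libraries in which Hspb1 was high were those with the lowest summed muscle level of their genotype (257 CPM in ADCY3∆AT replicate 1 and 1818 CPM in WT replicate 2). The part of muscle in the value was not tested. The promoters of both genes are shown for their heat shock element letters, in capitals: for Hspb1 (chr5:135887669-135887918, plus strand) GAANNTTC beginning 117 and 97 bases before the start, and for Hsph1 TTCNNGAA beginning 33 bases before the first of 2 start sites. Of Hsph1 only the 30 bases around the motif are given (chr5:149636351-149636380, minus strand), since the annotation places an untranslated exon there.
Hspb1: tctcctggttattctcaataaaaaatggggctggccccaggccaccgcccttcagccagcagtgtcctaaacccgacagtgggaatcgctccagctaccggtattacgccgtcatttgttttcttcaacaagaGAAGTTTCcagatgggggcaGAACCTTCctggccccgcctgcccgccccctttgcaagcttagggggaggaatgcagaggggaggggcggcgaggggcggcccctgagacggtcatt
Hsph1: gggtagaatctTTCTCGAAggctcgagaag
The windows listed for Dnajb1, at 2 start sites, hold none of the motifs, and the second (chr8:83608298-83608547) lies within the annotated gene. Only exact matches in 250 bases were searched, so this does not show that Dnajb1 lacks heat shock elements.

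Hspa8 encodes HSC70, the HSP70 that cells make at all times, and was the most abundant member. It (ENSMUSG00000015656, plus strand of chromosome 9, 40800984 to 40810087) had 1634, 1274 and 1209 CPM in ADCY3∆AT, against 1301, 2013 and 1636 CPM in WT. The groups overlapped, and the log2 fold change was -0.27 ± 0.16 (SE, edgeR adjusted p = 0.600). Its size depended on single libraries, from -0.098 without WT replicate 2 to -0.41 without ADCY3∆AT replicate 1 or WT replicate 1. The row of Gm15459, a processed pseudogene that shares 91.9% of its 31-base words with Hspa8 transcripts, changed this order. It had 373.6 CPM in ADCY3∆AT replicate 3 and 387.7 CPM in WT replicate 1, which was 23.6% and 22.96% of the sum of both rows, but no more than 0.727 CPM in the other 4 libraries. Libraries with many and with few counts for Gm15459 thus occurred in both genotypes. How the quantification divided reads between both rows remains not given in the sources used here. Gm15459 was singled out after its values were seen.

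With both rows summed, Hspa8 and Gm15459 had 1634, 1274 and 1583 CPM in ADCY3∆AT, against 1688, 2014 and 1636 CPM in WT. All 3 ADCY3∆AT libraries then lay below all 3 WT libraries, the nearest pair by under 3 CPM. At a log2 fold change of -0.25 ± 0.11 (SE), the sum passed neither in edgeR (adjusted p = 0.464) nor in DESeq2 (adjusted p = 0.368). It was -0.15 without ADCY3∆AT replicate 2 or WT replicate 2, and as low as -0.32 without ADCY3∆AT replicate 1. Summing lowered the pooled SD within genotypes to 0.18, against 0.28 for the Hspa8 row alone, on the log2 scale.

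**Figure D3:**
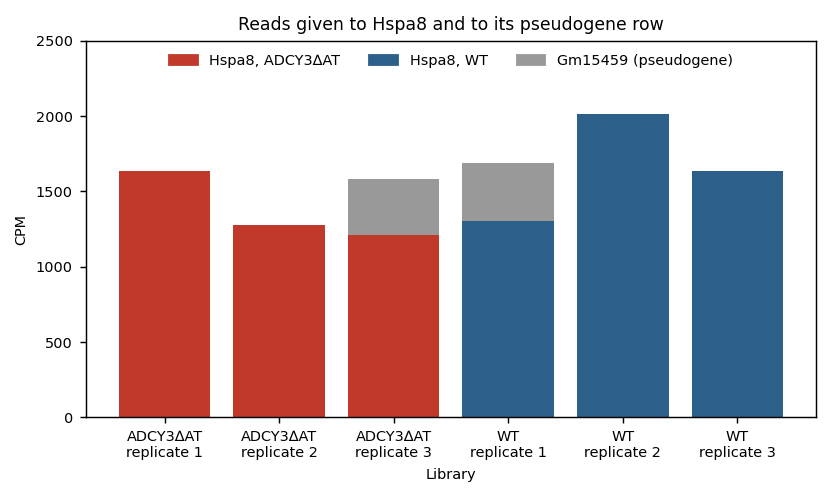
CPM of Hspa8 in each library (ADCY3∆AT in red, left, and WT in blue) with the CPM of its pseudogene row Gm15459 stacked on top in grey. The grey part is 373.6 CPM in ADCY3∆AT replicate 3 and 387.7 CPM in WT replicate 1 and too small to see in the other 4 libraries.

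Hsp90aa1 encodes the inducible form of cytosolic HSP90. It (ENSMUSG00000021270, minus strand of chromosome 12, 110690605 to 110702728) had 595.4, 454.7 and 429.5 CPM in ADCY3∆AT, against 519.2, 606.8 and 538.0 CPM in WT. Replicate 1 of ADCY3∆AT lay within the WT range, and the other 2 lay below it. Its log2 fold change was -0.17 ± 0.12 with all libraries (SE, edgeR adjusted p = 0.652) and -0.33 ± 0.08 without ADCY3∆AT replicate 1 (SE, edgeR adjusted p = 0.307).

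Hspd1 and Hspe1 encode HSP60 and HSP10, the subunits of the mitochondrial chaperonin, and their 5′ ends overlap on opposite strands of chromosome 1. Hspd1 (ENSMUSG00000025980, minus strand, 55077835 to 55088243) had 784.8, 693.7 and 683.4 CPM in ADCY3∆AT, against 742.8, 773.5 and 758.4 CPM in WT. Here ADCY3∆AT replicate 1 was the highest of all libraries by a small margin, and the log2 fold change was -0.07 ± 0.06 (SE, edgeR adjusted p = 0.716). Hspe1 (ENSMUSG00000073676, plus strand, 55088132 to 55091307) had 125.4, 123.0 and 131.8 CPM in ADCY3∆AT, against 141.8, 152.3 and 140.2 CPM in WT. It was the only member with every ADCY3∆AT library below every WT library. With a log2 fold change of -0.19 ± 0.06 (SE), Hspe1 passed neither in edgeR (adjusted p = 0.303) nor in DESeq2 (adjusted p = 0.181). The exact permutation test again gave p = 0.1. Its value was nearly the same without ADCY3∆AT replicate 1, at -0.18 ± 0.07 (SE, edgeR adjusted p = 0.472).

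The 5′ region that these genes share is shown because it holds the longest run of heat shock element letters among the windows listed, 4 units in a row, in capitals. The run begins 89 bases before the start of Hspe1 and lies within an untranslated first exon annotated for Hspd1 on the other strand, so only 30 bases around it are given (plus strand, chr1:55088053-55088082). The second Hspd1 window, on the minus strand, holds the same run, beginning 144 bases before that start site, and the first does not hold it.
Hspe1: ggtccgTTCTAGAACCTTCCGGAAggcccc
Hspe1 and Hspd1 are thus the 2 members with a 13-base motif, and ADCY3∆AT replicate 1 differed from the mean of the other 2 ADCY3∆AT libraries by -0.02 for Hspe1 and 0.19 for Hspd1, on the log2 CPM scale. For Hspa1a and Hspa1b, whose windows hold an 8-base motif, these differences were 3.21 and 3.43. Only exact matches were searched, so inexact heat shock element units were not counted. The strength of an element was not measured, and a link between motif and level was not tested.

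Hsf1, the transcription factor that drives the heat shock response and is controlled mainly at the protein level, had like levels in all libraries. It (ENSMUSG00000022556, plus strand of chromosome 15, 76477422 to 76501913) had 15.7, 16.5 and 15.5 CPM in ADCY3∆AT, against 14.5, 16.1 and 15.4 CPM in WT. Its log2 fold change was 0.05 ± 0.07 (SE, edgeR adjusted p = 0.810). The library with the most Hspa1a and Hspa1b was thus not the one with the most Hsf1.

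**Figure D4:**
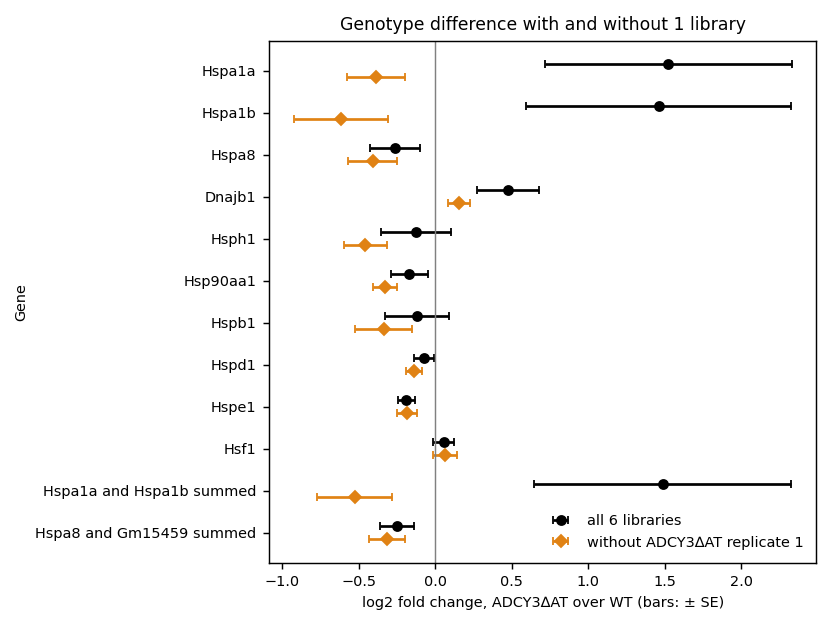
Log2 fold change of ADCY3∆AT over WT (x axis, bars are ± SE) for the 10 heat shock genes and for 2 summed features (y axis), with all 6 libraries in black and without ADCY3∆AT replicate 1 in orange. Hspa1a and Hspa1b stand at 1.52 and 1.46 in black and at -0.39 and -0.62 in orange, while Hspe1 and Hsf1 hardly move.

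Leaving out 1 high library moved most members, downwards without the high ADCY3∆AT library and upwards without the high WT library. Without ADCY3∆AT replicate 1, of the 10 members 8 had a negative log2 fold change, against 50% of all genes, with a median of -0.33. At an unadjusted p under 0.05 there were 5 lower (Hspa8, Hsph1, Hsp90aa1, Hspd1 and Hspe1) and 0 higher, beside 9.39% of genes in that fit (4.77% lower and 4.61% higher). None passed in edgeR at an adjusted p of 0.05, where the background was 0.00539% of 18537 genes and the lowest adjusted p of a member was 0.307 (Hsp90aa1). For 5 members both remaining ADCY3∆AT libraries lay below all 3 WT libraries, beside 13.6% of all genes, and for Dnajb1 both lay above, beside 13.4%. Without WT replicate 2, 4 of the 10 had a negative log2 fold change, beside 48.2% of all genes, with a median of 0.06. Hspe1 was then the only member at an unadjusted p under 0.05, beside 7.2% of genes in that fit, and 0 passed in edgeR at an adjusted p of 0.05. Over the 6 libraries left out in turn, the members with a negative value numbered from 4 to 8, and those lower at an unadjusted p under 0.05 from 1 to 5. Those higher at that level numbered from 0 to 3. The 3 were Hspa1a, Hspa1b and Dnajb1, without ADCY3∆AT replicate 3, and there were 2 without ADCY3∆AT replicate 2. Both libraries were singled out after their values were seen, and dropping the highest library of a group lowers that group by construction. With all 6 libraries 1 member, Hspe1, was lower at an unadjusted p under 0.05, beside 5.78% of all genes.

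The spread of the members was set beside that of all genes. The pooled SD of log2 CPM within genotypes was 1.33 for Hspa1a and 1.47 for Hspa1b, at the 99.2 and 99.3 percentiles of all genes tested. Among genes within 0.5 of the same mean log2 CPM, Dnajb1 (0.34), Hsph1 (0.39), Hspb1 (0.35) and Hspa8 (0.28) lay at the 98.3, 99.3, 99.5 and 96.0 percentiles. Hsp90aa1 (0.20) lay at 91.9, Hspd1 (0.08) at 60.0, Hspe1 (0.06) at 41.0 and Hsf1 (0.06) at 18.3. Hspa8 summed with Gm15459 (0.18) lay at 84.8, so its place depends on that row. The 7 cytosolic chaperones thus lay at the 91.9 percentile or above, Hspa8 only as its own row, while Hspd1 lay nearer the middle and Hspe1 and Hsf1 below it.

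**Figure D5:**
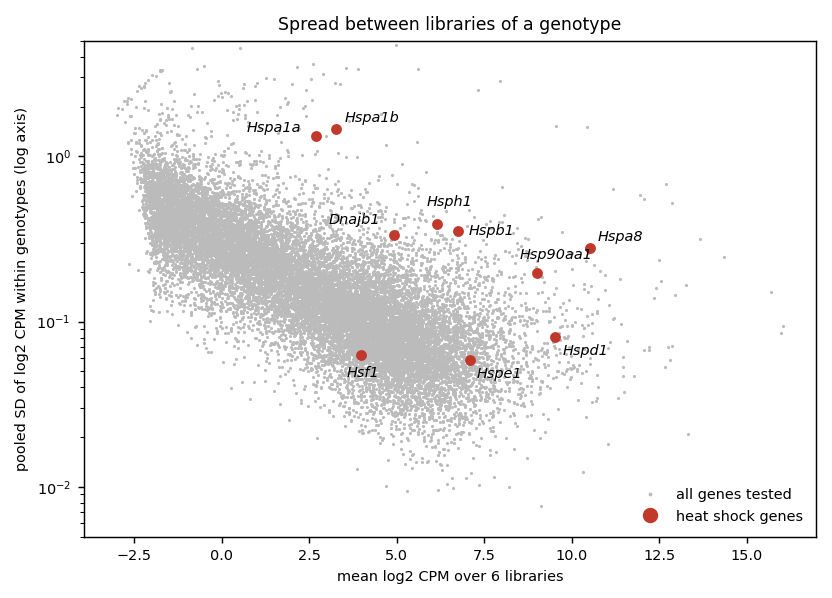
Pooled SD of log2 CPM within genotypes (y axis, log scale) against mean log2 CPM over 6 libraries (x axis) for all genes tested, in grey, and for the 10 heat shock genes, in red. Hspa1a and Hspa1b lie at 1.33 and 1.47, above nearly all genes of like level, while Hspe1 and Hsf1, both at 0.06, lie inside the cloud.

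Counted over members, 5 of 10 were at least 0.5 above the mean of the other 2 libraries of the genotype in ADCY3∆AT replicate 1, on the log2 CPM scale, beside 1.47% of the 12194 genes whose mean log2 CPM was 1 or more. These were Hspa1a, Hspa1b, Dnajb1, Hsph1 and Hspb1. In WT replicate 2 there were 2, Hspa1b and Hspb1, beside 1.2% of genes. The other 4 libraries had 0, beside 1.47% (ADCY3∆AT replicate 2), 2.67% (ADCY3∆AT replicate 3), 1.77% (WT replicate 1) and 1.42% (WT replicate 3). At least 0.5 below were 4 members in ADCY3∆AT replicate 2 (0.869% of genes), 2 in ADCY3∆AT replicate 3 (1.68%) and 1 in WT replicate 3 (1.23%). In ADCY3∆AT replicate 1 (2.95%), WT replicate 1 (1.36%) and WT replicate 2 (1.95%) there were 0. Since each library is set against the other 2 of its genotype, a high replicate 1 makes replicates 2 and 3 low on this scale. ADCY3∆AT replicate 1 and WT replicate 2 also had, within their genotypes, the highest summed level of the 10 members, which was 3533, 2734 and 2666 CPM in ADCY3∆AT replicates 1, 2 and 3 and 2924, 3841 and 3295 CPM in WT, with Hspa8 the largest part.

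Other transcripts of ADCY3∆AT replicate 1 are given beside this. Its summed skeletal muscle level, 257 CPM, was the lowest of all libraries, and of the 26 genes at least 2 below the mean of the other 2 ADCY3∆AT libraries on the log2 scale, 16 were in the muscle list. Macrophage markers (10 genes) summed to 138, 209 and 200 CPM in ADCY3∆AT and 197, 121 and 142 CPM in WT. B cell markers (7 genes) summed to 34.4, 41.6 and 16.8 CPM in ADCY3∆AT and 18.9, 10.99 and 16.2 CPM in WT. Endothelial markers (10 genes) summed to 1255, 1322 and 1347 CPM in ADCY3∆AT and 1247, 1173 and 1201 CPM in WT, and fibroblast markers (10 genes) to 464, 475 and 496 CPM in ADCY3∆AT and 432, 378 and 480 CPM in WT. Brown adipocyte markers (12 genes) summed to 19626, 19545 and 19141 CPM in ADCY3∆AT and 20255, 20187 and 20198 CPM in WT. Ucp1 was the largest part of this sum, and Ighm of the B cell sum, so both say little about the other genes of these lists. Elovl3, lower, was the 1 brown adipocyte marker called by DESeq2 (adjusted p = 0.033), beside 1.17% of the genes it tested, and did not pass in edgeR (adjusted p = 0.305). Of these 6 marker lists, the muscle list had 4 genes listed at 0 in some library and the others had none. Their part in the heat shock values was not tested.

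Immediate early genes, transcription factors and regulators that respond to many stimuli within minutes, are given beside Hspa1a, and a link was not tested. ADCY3∆AT replicate 1 was the highest of the 6 libraries for 5 of the 17 tested, as it was for 3497 of all 18114 genes. Of 17 tested, 3 were at least 0.5 above the other ADCY3∆AT libraries in replicate 1, on the log2 CPM scale: Fos (1.05), Egr1 (1.31) and Ier3 (0.57). Over all 18114 genes, low ones included, 5.95% were so. In WT replicate 1, where Hspa1a was not high (0.13), 4 of the 17 had such an excess, among them Egr1 (1.53), Fos (1.01) and Atf3 (0.92), beside 6.19% of all genes. Egr1 had 6.52, 2.74 and 2.48 CPM in ADCY3∆AT, against 1.99, 0.409 and 1.05 CPM in WT. As a whole, the summed level of the list was 314, 303 and 334 CPM in ADCY3∆AT, against 295, 256 and 264 CPM in WT, so replicate 1 was not the highest. On genotype, 16 had a positive log2 fold change, as did 9224 of all 18114 genes. The median of the list was 0.31, and 7 of its genes were higher at an unadjusted p under 0.05, beside 5.23% of all genes. That count was 3 without ADCY3∆AT replicate 1, beside 4.61% of genes in that fit, and from 6 to 8 of the 17 or 18 tested without any other single library. None passed in edgeR at an adjusted p of 0.05, and DESeq2 called 1. This was Klf2, a transcription factor of endothelium, at 13.9, 14.5 and 17.6 CPM in ADCY3∆AT and 10.6, 10.4 and 10.6 CPM in WT (log2 fold change 0.54 ± 0.10, SE, edgeR adjusted p = 0.158 and DESeq2 adjusted p = 0.00239). Jund (0.24 ± 0.06) and Klf6 (0.21 ± 0.07) followed by p-value and did not pass.

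A few other cytosolic chaperones were also high in ADCY3∆AT replicate 1, at a smaller size. Further chaperone and co-chaperone genes at a mean log2 CPM of 1 or more numbered 73. Of these, 3 were at least 0.5 above the other ADCY3∆AT libraries in replicate 1, beside 1.47% of all 12194 genes at that level. They were Hspa4l (0.55), an HSP110 relative, Dnaja1 (0.51), an HSP40, and Cryab (1.15), a small heat shock protein. Cryab was highest in another library, WT replicate 3, with 4.70, 2.64 and 1.66 CPM in ADCY3∆AT, against 2.97, 3.41 and 6.72 CPM in WT. Dnaja1 had 150.4, 97.4 and 115.1 CPM in ADCY3∆AT, against 120.8, 157.4 and 111.7 CPM in WT, so that ADCY3∆AT replicate 1 and WT replicate 2 were the high libraries, as for Hsph1. The co-chaperones Stip1 (0.39) and Chordc1 (0.36), which link to HSP90, came next below Hspa12a (0.44) and Dnajb4 (0.43). These 7 genes lead that order of 73 and were named after their values were seen.

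Against genotype, none of 77 tested genes in 7 further chaperone lists passed in edgeR at an adjusted p of 0.05, beside 0.00552% of all genes. At an unadjusted p under 0.05, the share over all genes tested was 11%. Among other HSP70, HSP90 and HSP110 genes (8 tested, median log2 fold change -0.01, or 0.01 scaled by library totals alone) 0 had an unadjusted p under 0.05. The lowest p-values there were those of Hspa12a (0.32 ± 0.16, SE), Hspa1l (-0.99 ± 0.49) and Hspa4 (-0.09 ± 0.05). Hspa1l, an HSP70 gene of the testis, had only 3, 16 and 14 counts in ADCY3∆AT and 27, 21 and 19 in WT, lowest in the library with the most Hspa1a and Hspa1b. Among other HSP40 genes (14 tested, median -0.02) 0 had an unadjusted p under 0.05, led by Dnaja2 (-0.12 ± 0.05), Dnajb5 (-0.23 ± 0.15) and Dnajb12 (-0.13 ± 0.10).

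Small heat shock proteins other than Hspb1 included the only DESeq2 call among the chaperone lists, where DESeq2 called 1.17% of all genes it tested. Of 9 genes 6 were tested. Their median log2 fold change was -0.28, and 2 lay lower at an unadjusted p under 0.05, beside 5.78% of all genes tested. Hspb7, a small heat shock protein of heart and skeletal muscle, had 0.131, 0.488 and 0.452 CPM in ADCY3∆AT, against 1.42, 1.11 and 3.00 CPM in WT. Its log2 fold change of -2.35 ± 0.52 (SE) passed in DESeq2 (adjusted p = 0.000526) and not in edgeR (adjusted p = 0.199). The muscle list, which had a median log2 fold change of -3.07 over 24 genes, moved the same way in the same libraries, and its part in the value of Hspb7 was not tested. Hspb8, a partner of the co-chaperone Bag3, had 121.8, 108.4 and 116.9 CPM in ADCY3∆AT, against 139.0, 156.1 and 129.2 CPM in WT. Its log2 fold change of -0.29 ± 0.08 (SE) did not pass in edgeR (adjusted p = 0.266) or DESeq2 (adjusted p = 0.0572), and Hspb6 had -0.27 ± 0.15.

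Co-chaperones of HSP70 and HSP90 (21 tested, median log2 fold change -0.06) held 1 gene higher and 2 lower at an unadjusted p under 0.05. Over all genes tested, 5.23% were higher and 5.78% lower. Without ADCY3∆AT replicate 1 the list held 5 lower, beside 4.77% of genes in that fit. Ptges3, the p23 co-chaperone of HSP90, had -0.26 ± 0.08 (SE), Tomm34 0.19 ± 0.07 and Hspbp1, an exchange factor of HSP70, -0.16 ± 0.07. ADCY3∆AT replicate 2 was the lowest of the 6 libraries for 14 of the 21, as it was for 2883 of all 18114 genes. The cytosolic chaperonin TRiC, which folds actin and tubulin, had a negative log2 fold change for all 8 subunits, also with RLE factors and with library totals alone. Of all 18114 genes, 8890 were negative with TMM factors, 8935 with RLE factors and 8196 with library totals alone. Without WT replicate 1, 7 of the 8 subunits were negative. The median of the subunits was only -0.05, and 0 had an unadjusted p under 0.05. Tcp1 had -0.12 ± 0.05 (SE), Cct3 -0.09 ± 0.06 and Cct6a -0.08 ± 0.08.

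Mitochondrial chaperones and proteases beyond the chaperonin differed little (16 tested, median log2 fold change -0.01, or 0.00 scaled by library totals alone). At an unadjusted p under 0.05, 1 was higher and 0 lower, beside 5.23% and 5.78% of all genes tested. Hscb, a co-chaperone of iron-sulphur cluster assembly, had 0.34 ± 0.11 (SE), Htra2 0.11 ± 0.05 and Grpel2 -0.11 ± 0.08. Heat shock factors and their regulators (4 of 6 tested, median -0.03) held 0 genes at an unadjusted p under 0.05, with Hikeshi, the nuclear importer of HSP70, at -0.13 ± 0.08 (SE), Hsf2 at -0.13 ± 0.08 and Hsbp1 at 0.07 ± 0.06.

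Levels per length ranked the members in the same broad order in both genotypes. As the median CPM per kilobase of annotated exon, Hspa8 had 296 in ADCY3∆AT and 380 in WT, and Hspd1 had 263 in ADCY3∆AT and 287 in WT. Hsp90aa1 had 116 in ADCY3∆AT and 137 in WT, Hspb1 98.3 in ADCY3∆AT and 102 in WT, and Hspe1 85.1 in ADCY3∆AT and 96.2 in WT. Dnajb1 (9.30 in ADCY3∆AT and 7.93 in WT) and Hsph1 (8.21 in ADCY3∆AT and 9.50 in WT) were an order of magnitude lower and close to each other, and they changed places between the genotypes. Hsf1 (2.21 in ADCY3∆AT and 2.17 in WT), Hspa1b (2.23 in ADCY3∆AT and 3.17 in WT) and Hspa1a (1.41 in ADCY3∆AT and 1.79 in WT) were the lowest. The exon length counts every annotated exon once, so genes with rarely used exons are placed too low on this scale.

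The genes with the most similar patterns were named by the root mean square difference of centred log2 CPM over 6 libraries, out of 10983 candidates. For Hspa1a these were Hspa1b (0.21), then Irs3 (0.64), an insulin receptor substrate of rodents, Ankrd37 (0.74), Ddit4 (0.80) and Depp1 (0.81). For Hspa1b they were Hspa1a (0.21), Irs3 (0.77), Ankrd37 (0.84), Eps8l1 (0.88) and Ddit4 (0.88). Irs3 had 28.1, 11.03 and 10.03 CPM in ADCY3∆AT and 9.73, 10.3 and 10.98 CPM in WT, high in the same library at a smaller size. For Dnajb1 they were Id4 (0.09), Depp1, Sox5, Banp and Hes1 (0.13), and for Hsph1 they were the chaperones Hspb1 (0.11) and Dnaja1 (0.12), then Nek3, Plag1 and Gprin3 (0.14).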

How the data were processed

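Total RNA of 6 samples was sequenced as paired-end libraries (NEBNext Ultra II), per the labels. The authors deposited estimated counts per Ensembl gene, not normalised, for 54385 rows, of which 54131 matched GENCODE M21 (GRCm38). Per the submitters' processing notes, Salmon, StringTie, edgeR and GRCm38 were used, in roles and with settings that remain not given in the sources used here.

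Estimated counts were rounded, filtered with filterByExpr and scaled with TMM factors. Genotype was tested with edgeR 4.0.16 (quasi-likelihood F test, R 4.3.3) over all 18114 genes, with Benjamini-Hochberg adjustment and a threshold of 0.05, and SE was taken from the F statistic. Log2 CPM used a prior count of 2. The tests were tried on simulated data with known changes. At 1.5-fold, the share of changed genes found was 29.9% in edgeR and 40.3% in DESeq2. At 2-fold it was 59.7% in edgeR and 67.2% in DESeq2, and at 4-fold 87.9% and 89.4%. The false share among calls was 9.23% in edgeR and 22% in DESeq2, more than the threshold of 0.05 allows. Small differences can thus be missed, and calls by DESeq2 alone are less certain. Alternatives were DESeq2 1.42.0, limma 3.58.1 voom, RLE factors, library totals, other filters, a replicate block and leaving out each library. Summing Hspa8 with Gm15459, member and list counts without each library and TMM factors without the members were added after seeing the data.

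Members and lists were chosen with earlier results of these data known. Named are the members, the 3 lowest p-values of each chaperone list and of the immediate early genes, and the 5 nearest patterns of 4 members. Marker lists are given by summed level. Groups of 3 libraries limit precision.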

Additional observations from a re-analysis of the deposited data

How the results depend on the processing

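No member passed the threshold under any of the 14 alternatives, although DESeq2 gave no p-value for Hspa1a, Hspa1b or their sum. Over all genes, edgeR called 1 row, lower, and the count was 232 in DESeq2 (89 higher, 143 lower), 2 in limma voom (1 higher, 1 lower), 214 with no low-count filter (59 higher, 155 lower) and 3, all lower, with the replicate block. Leaving out 1 library gave 1 to 66 calls, 0 to 27 higher and 1 to 39 lower, with the most without ADCY3∆AT replicate 3. Without ADCY3∆AT replicate 1 the log2 fold change turned to -0.39 for Hspa1a, -0.62 for Hspa1b and -0.53 for their sum. Over all single libraries left out, the highest values were 1.99, 1.95 and 1.96, each without ADCY3∆AT replicate 3. In limma voom the values were 0.67, 0.55 and 0.60, and with the replicate block 0.73, 0.61 and 0.62. Hsph1 ranged from -0.46 to 0.055, the highest without ADCY3∆AT replicate 2, and was 0.031 without WT replicate 2. Hspb1 ranged from -0.34 to 0.089, the highest without WT replicate 2, and was 0.042 without ADCY3∆AT replicate 2. Without 1 library, Hspa8 ranged from -0.41 to -0.098, Hsp90aa1 from -0.33 to -0.080, Hspd1 from -0.14 to -0.037, Hsf1 from 0.016 to 0.087 and Dnajb1 from 0.16 to 0.63. No member beside Hspa1a, Hspa1b, Hsph1 and Hspb1 changed sign. Deviations of same-numbered libraries correlated at -0.086, -0.13 and -0.086, against 0.0037 to 0.093 for the other pairs. No value for truly paired libraries is known, so these correlations cannot show whether replicate numbers pair the libraries. The causes were not tested.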

Other observations

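The libraries with counts for the pseudogene row Gm15459 also stood apart for Cyfip2, a regulator of actin assembly. It was noticed among the genes with the largest excess of ADCY3∆AT replicate 1 over the mean of the other 2 ADCY3∆AT libraries. Cyfip2 had 8.84, 8.17 and 0.516 CPM in ADCY3∆AT replicates 1, 2 and 3, against 0.802, 9.49 and 8.36 CPM in WT. ADCY3∆AT replicate 3 and WT replicate 1 were thus the low libraries for Cyfip2 and the only ones above 1 CPM for Gm15459. Lep, the hormone leptin, was also among the genes with the largest such excess. It had 22.9, 17.4 and 2.30 CPM in ADCY3∆AT and 5.67, 4.50 and 9.49 CPM in WT. These genes were chosen after their values were seen.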
